A study of Drosophila melanogaster with 3 samples.

Results

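The genes described here encode the proteins of the mitochondrial ribosome and were chosen by symbol, as protein-coding genes of the Ensembl fly models whose name begins with mRpL or mRpS and a digit. They numbered 73 of 13945 protein-coding genes, with 47 in the large subunit (mRpL) and 26 in the small subunit (mRpS). The measurement was ChIP-seq of Scute, a proneural bHLH transcription factor, carried as a C-terminal GFP fusion by a transgenic fly line and recovered with an antibody against GFP. Whole embryos of both sexes were collected from 0 to 14 h, which mixes all tissues and many stages, and chromatin was sonicated to fragments of 200 to 800 bp. The 3 biological replicates form 1 group, and neither a wild-type embryo nor an untagged line was analysed here. Every statement below therefore describes where regions lay and how far the replicates shared them, and no difference between conditions was tested. No RNA was measured, so marker genes of tissues could not be read in these samples.

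Mitochondrial ribosomes translate the few proteins still encoded by mitochondrial DNA, which are subunits of the respiratory chain and of ATP synthase. Their own proteins are encoded in the nucleus, made on cytoplasmic ribosomes and imported. The small subunit reads the messenger RNA and the large subunit forms the peptide bonds. Scute is best known for the choice of neural precursors, and with its partner Daughterless it binds E-boxes, short motifs of the form CANNTG.

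Genes of the mitochondrial ribosome were often arranged head to head with another gene, and the Scute regions near them lay in the stretch shared by both starts. A divergent neighbour, meaning a protein-coding start on the opposite strand no more than 1000 bp upstream, was found for 58 of the 73 members (79.5%, 95% Wilson interval 68.8 to 87.1%) and for 35.2% of all protein-coding genes. The distance to that start had a median of 283 bp in members and 300 bp in all genes that have such a neighbour. The regions came from the authors' thresholded set, which held 3612 regions and is the set the authors kept after asking for agreement between replicates. A thresholded summit, the highest base of a region, lay within 500 bp of an own start in 17 of the 73 members. All 17 had a divergent neighbour, as did 61% of the 1725 protein-coding genes with such a summit. The summit lay between both starts in 15 of the 17 members (88.2%). Of those 1725 genes, 1052 had a divergent neighbour, and 729 of these had their strongest summit between both starts. The share over all 1725 genes was 42.3%, which counts genes without a divergent neighbour that cannot have such a summit. Since all 17 members had a divergent neighbour, the like comparison for 15 of 17 is 729 of 1052. The exceptions among the members were mRpL23, whose summit lay in its own first part, and mRpL27, whose summit lay inside the neighbouring gene.

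The sequences between both starts are shown for 4 pairs that lie no more than 300 bp apart, since they hold the whole stretch that the summit shares with both genes. They run from the base after the neighbour's start to the base before the member's start, on the strand of the member, and touch no annotated exon. They were read from the Release 6 genome of RefSeq, the dm6 build. Capitals mark the 11 bases centred on the summit and any match to CAGCTG or TATAAA on either strand.
mRpS10 to Art3 (chr3R:15229409-15229664, + strand, summit at base 123): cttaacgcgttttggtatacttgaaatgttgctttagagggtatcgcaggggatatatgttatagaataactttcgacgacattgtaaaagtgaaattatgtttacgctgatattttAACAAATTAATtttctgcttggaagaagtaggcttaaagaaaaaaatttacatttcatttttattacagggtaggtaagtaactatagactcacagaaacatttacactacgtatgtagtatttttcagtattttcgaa
mRpS2 to Mon1 (chr2L:4850420-4850640, - strand, summit at base 62): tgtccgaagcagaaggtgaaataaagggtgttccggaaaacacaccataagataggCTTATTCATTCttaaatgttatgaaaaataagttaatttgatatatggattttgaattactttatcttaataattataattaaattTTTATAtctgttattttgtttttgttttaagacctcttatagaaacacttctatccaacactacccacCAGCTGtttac
mRpL24 to betaggt-I (chr2L:4945362-4945578, - strand, summit at base 84): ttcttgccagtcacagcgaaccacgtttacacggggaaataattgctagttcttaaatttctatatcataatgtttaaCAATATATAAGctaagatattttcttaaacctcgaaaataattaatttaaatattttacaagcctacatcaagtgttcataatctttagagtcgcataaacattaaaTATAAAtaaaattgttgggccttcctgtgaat
mRpL21 to rept (chr3L:19255062-19255339, - strand, summit at base 69): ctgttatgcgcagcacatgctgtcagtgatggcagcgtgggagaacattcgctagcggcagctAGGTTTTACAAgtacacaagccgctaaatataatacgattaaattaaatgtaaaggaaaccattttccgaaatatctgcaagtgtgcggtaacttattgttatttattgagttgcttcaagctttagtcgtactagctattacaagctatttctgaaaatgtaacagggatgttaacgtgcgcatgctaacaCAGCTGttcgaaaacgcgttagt
The stretch at mRpS10 held the strongest of the member regions and none of the 10 motifs that were searched. In the mRpS2 and mRpL21 stretches CAGCTG stood close to the member's start, away from the summit, and TATAAA stood in the mRpS2 and mRpL24 stretches.

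Counted over the gene body and 2 kb upstream, called the territory here, 22 of the 73 members (30.1%, interval 20.8 to 41.4%) held a thresholded summit, against 20.5% of all protein-coding genes. Within 500 bp of an own start the count was 17 of 73 (23.3%, interval 15.1 to 34.2%), against 12.4% of all genes. Inside the gene body it was 1 of 73 (1.37%), mRpL23, against 9.24% of all genes. Members were short genes, with a median length of 909 bp against 2166 bp over all protein-coding genes, so the body count has less sequence to draw on. A window around the start does not grow with gene length. The intervals cover counting error over genes only, and genes are not replicates.

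The count at the starts was close in the 3 replicates when each list was cut to its 3612 highest regions by signal. A region lay within 500 bp of an own start for 16, 15 and 18 members in replicates 1, 2 and 3, a mean of 16.3 ± 1.53 (SD, n = 3). The same share over all genes was 13.7%, 12.7% and 12.2%, against 21.9%, 20.5% and 24.7% of members. The counts were close, but the members behind them differed between replicates. Only 10 thresholded member summits within 500 bp of an own start were among the highest regions of all 3 replicates. The count for replicate 1 took in mRpL44, mRpS18B, mRpS21, mRpS22 and mRpS31, which held no thresholded summit. When only thresholded regions found among the highest regions of both other replicates were kept, the territory count was 16 (21.9%) without replicate 1, 13 (17.8%) without replicate 2 and 14 (19.2%) without replicate 3, against 16.1%, 16.3% and 16.3% of all genes. The count at the starts then was 13 (17.8%), 10 (13.7%) and 11 (15.1%), against 9.43%, 9.62% and 9.71% of all genes. Under this stricter reading the territory share of members lay close to the background without replicate 2 or 3. The share at the starts was higher than its background in all 3 cases, with no interval given for these counts. That background was not matched for a divergent neighbour, which 79.5% of members and 35.2% of all genes had.

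The count at the starts differed with the presence of a divergent neighbour, in members and in all genes. Among genes with a divergent neighbour, 17 of 58 members (29.3%, interval 19.2 to 42.0%) held a summit within 500 bp of their start, and 21.4% of all such genes did, which lies inside the members' interval. Among genes without a divergent neighbour, 0 of 15 members did, which allows a share of up to 20.4% by the Wilson interval, against 7.45% of all such genes. The territory count takes in summits of neighbours, since 15 of the 22 members with a summit had the start of another gene nearer to it. Only 7 members (9.59%) held a summit whose nearest start was their own, against 14% of all protein-coding genes.

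**Figure D1:**
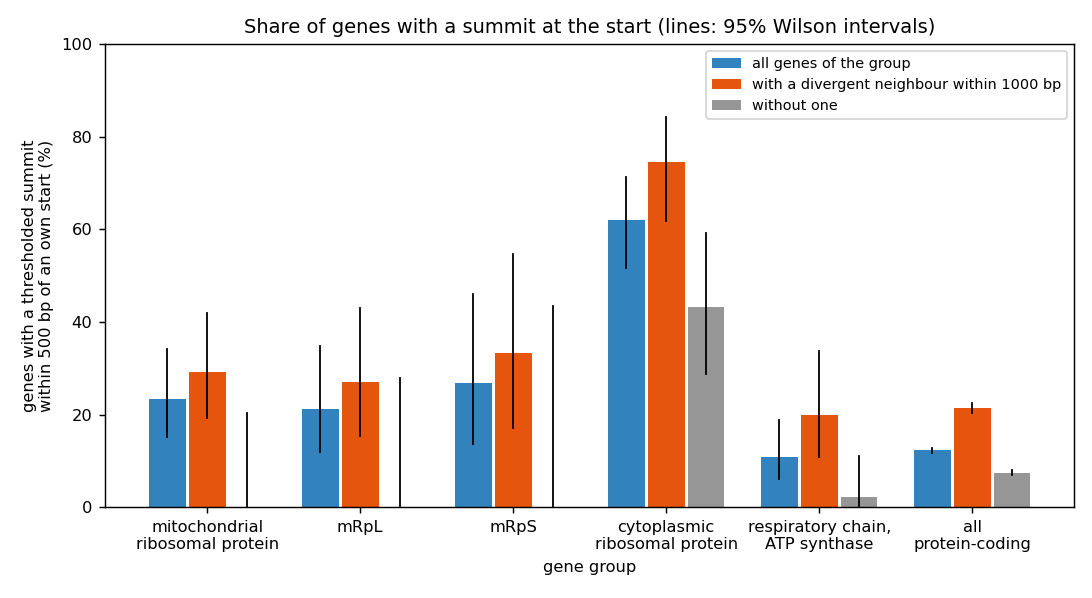
Bars give the percentage of genes with a thresholded summit within 500 bp of an own start, for members, their large and small subunit genes and other gene groups, split by a divergent neighbour within 1000 bp; lines are 95% Wilson intervals. Members with a divergent neighbour reached 29.3%, those without reached 0%, and all protein-coding genes showed the same order at 21.4% and 7.45%.

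The 2 strongest regions stood at small subunit genes. mRpS10 (FBgn0038307) encodes the mitochondrial relative of a protein that bacterial small subunits also carry. Its region, chr3R:15229361-15229727 in dm6, was number 10 of the pooled list by signal, with a pooled signal of 1664, and ranked 10, 21 and 8 in replicates 1, 2 and 3. The signals were 517, 558 and 598 in the same order, each on the scale of its own list. The summit lay 134 bp upstream of mRpS10 and 123 bp from Art3, an arginine methyltransferase gene that starts 257 bp away on the other strand, so it sat near the middle of the shared stretch. mRpS23 encodes a protein found in mitochondrial and not in bacterial ribosomes. Its region, chr2L:13835308-13835623, had a pooled signal of 1324 and ranked 42, 28 and 20, with the summit 384 bp upstream of mRpS23 and 108 bp from CenG1A, a gene for an Arf GTPase activator. Both regions were high in all 3 replicates, and both summits stood nearer the other gene.

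mRpS2 and mRpS6, relatives of bacterial small subunit proteins, followed. The mRpS2 region had a pooled signal of 519 and ranked 543, 442 and 343, with its summit 160 bp upstream of mRpS2 and 62 bp from Mon1, which encodes a factor for endosome maturation. The mRpS6 region had a pooled signal of 313 and ranked 855, 1531 and 1086, and here the own start was the nearest, 120 bp from the summit, with Cip4 starting 448 bp away. The region at mRpS7 also had its own start nearest, at 131 bp, and ranked 3964, 3521 and 2156. It lay between mRpS7 and Cdk1, the mitotic kinase gene, and within the territory of da, the gene of Scute's partner Daughterless. mRpS24 and mRpS29 completed the small subunit set. The mRpS24 summit lay 265 bp upstream and 156 bp from Apc2, and the region ranked 5331, 1772 and 2620. mRpS29, whose protein is a GTP-binding subunit known in humans as DAP3, had its summit 309 bp upstream with its own start nearest and rad50, a DNA repair gene, on the other side. That region ranked 5407, 2612 and 3032. mRpS7, mRpS24 and mRpS29 each fell below the highest 3612 regions in replicate 1 and stood among them in replicates 2 and 3. In all, 7 of 26 small subunit genes held a summit, each within 500 bp of its start.

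**Figure D2:**
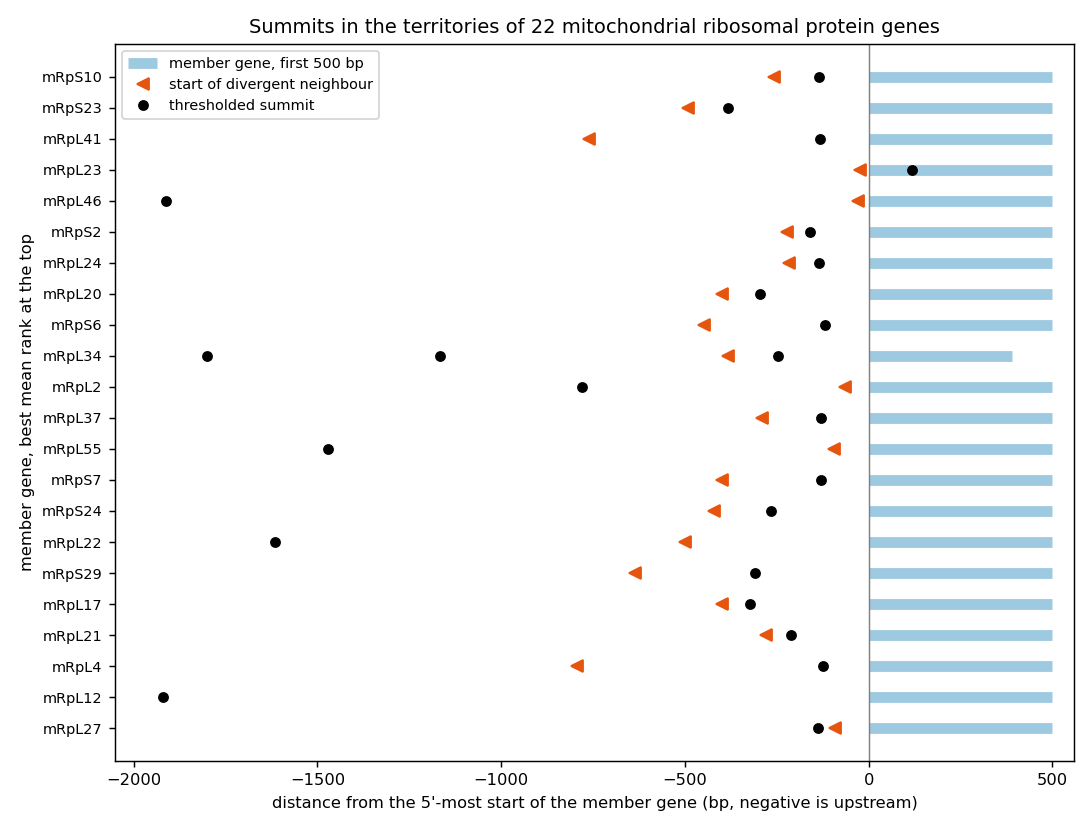
Position of the 24 thresholded summits (dots) of 22 members in bp from the 5′-most start of the member (line at 0; bar, first 500 bp of the gene), with the start of the divergent neighbour as a triangle. In 15 members the dot stands between triangle and start; mRpL46, mRpL2, mRpL55, mRpL22, mRpL12, mRpL27 and 2 of the 3 mRpL34 dots lie beyond the neighbour or far upstream, and the mRpL23 dot lies inside the gene.

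Among the large subunit genes, 15 of 47 held a summit in the territory and 10 of 47 within 500 bp of their start. mRpL41, which encodes a subunit specific to mitochondria, had the highest. Its region, chr2R:15217592-15217926, had a pooled signal of 1272 and ranked 40, 31 and 31, with the summit 133 bp upstream of its own start, the nearest, and CG8079 starting 762 bp away. mRpL23 was the single member with a summit in its body. That region, chr3L:2373440-2373768, had a pooled signal of 966 and ranked 69, 110 and 69. The summit lay in an intron of the longest transcript, 117 bp downstream of the 5′-most start and 86 bp upstream of the closest of its 3 annotated starts, with CG9004 starting 24 bp from the 5′-most start. These regions were stable in rank, within the highest 110 of every replicate.

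mRpL24 and mRpL20, both relatives of bacterial large subunit proteins, had their summits nearer a neighbour. The mRpL24 region had a pooled signal of 440 and ranked 395, 784 and 676, with the summit 134 bp upstream of mRpL24 and 84 bp from betaggt-I, a geranylgeranyl transferase subunit gene. The mRpL20 region had a pooled signal of 409 and ranked 690, 600 and 839, with the summit 296 bp upstream of mRpL20 and 103 bp from Icmt, a carboxyl methyltransferase gene. For both, all 3 replicates placed the region among their highest. mRpL37, another subunit specific to mitochondria, had a pooled signal of 211 and ranks of 1612, 3093 and 2252. Its summit lay 130 bp upstream of its own start, the nearest.

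Except for mRpL34, described with its other summits, the remaining large subunit genes with a summit at the start had pooled ranks of 3107 to 3448. mRpL17 had its summit 323 bp upstream and 76 bp from Tudor-SN, and mRpL21 had its summit 210 bp upstream and 69 bp from rept, a gene for a chromatin ATPase. mRpL4 had its own start nearest, at 125 bp, with CG4440 on the other side. For mRpL27 the summit was 137 bp upstream and 46 bp inside the 5′ UTR of CG15435, and the region also fell in the territory of RpL27A, a cytoplasmic ribosomal protein gene. The ranks of mRpL4 and mRpL27 spread most between replicates. mRpL4 ranked 7928, 5902 and 1546, and mRpL27 ranked 2163, 2653 and 13048. mRpL17 ranked 4458, 4398 and 3136, and mRpL21 ranked 7422, 3723 and 2838. Each of mRpL17, mRpL21 and mRpL4 was among the highest regions of replicate 3 alone, and mRpL27 missed only in replicate 3.

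A last group of large subunit genes held summits that lay 779 to 1920 bp upstream, where the start or body of another gene was nearer. mRpL46 had a pooled signal of 743 and ranks of 160, 179 and 187, but the summit lay 1912 bp upstream and 106 bp from PolD2, a DNA polymerase subunit gene. mRpL2, relative of a protein at the core of the bacterial large subunit, had a pooled signal of 209 and ranks of 1315, 1443 and 4057. Its summit lay 779 bp upstream in an intron of FoxK, 343 bp from the FoxK start. mRpL34 was the only member with 3 summits. The summit 247 bp upstream lay between mRpL34 and Dg, the dystroglycan gene, 137 bp from the Dg start, and ranked 1271, 3180 and 2024 with a pooled signal of 242. The other summits of mRpL34 lay in introns of Dg, 1165 and 1799 bp upstream of mRpL34. The summit 1165 bp upstream had a pooled signal of 245 and ranks of 1219, 2115 and 1822. Both stood 781 and 1415 bp inside Dg. mRpL55, mRpL22 and mRpL12 had summits 1472, 1614 and 1920 bp upstream, nearest to CG6040, if (an integrin gene) and GNBP3. All 24 summits, including those near the members' own starts, also fell in the territory of at least 1 other gene. For the 15 between divergent starts this follows from the arrangement, since territories reach 2 kb upstream. The share over all thresholded summits is not given here.

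**Figure D3:**
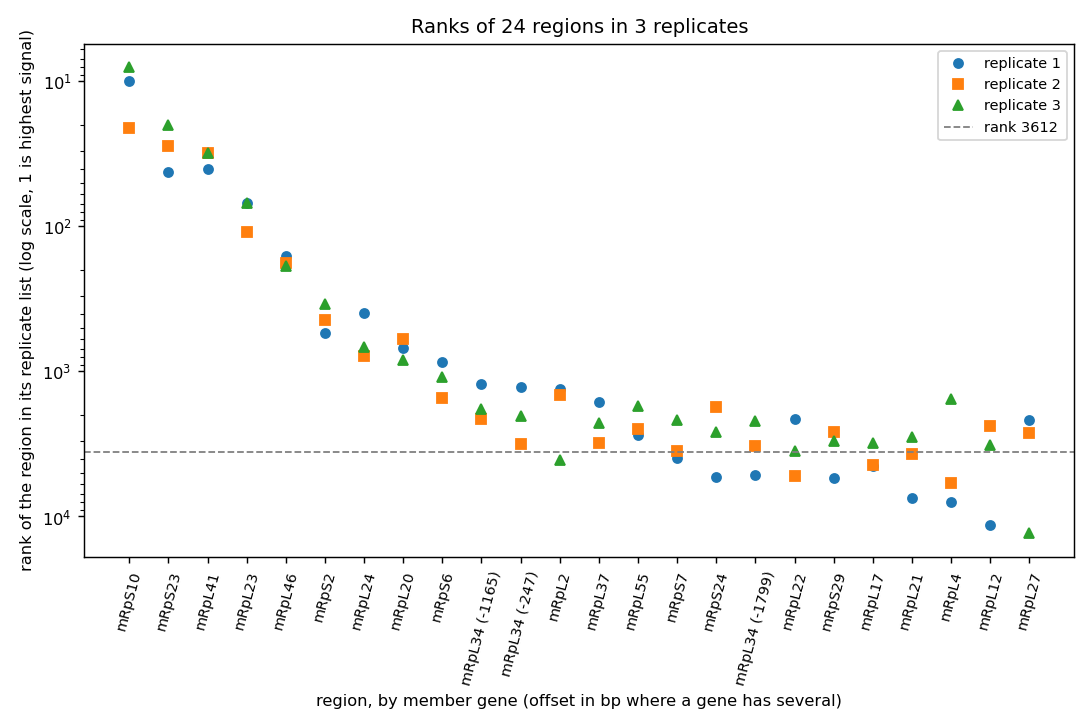
Rank of each of the 24 member regions in the list of replicates 1, 2 and 3 (log scale, rank 1 at the top is the highest signal), ordered by mean rank; the dashed line is rank 3612. The regions at mRpS10, mRpS23, mRpL41 and mRpL23 rank within the highest 110 of each replicate, and the spread grows toward mRpL4, mRpL12 and mRpL27.

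Over all member regions, pooled ranks ran from 10 to 3448 with a median of 2098, against 1806 for the thresholded set as a whole. The 722 highest regions of the set, which are 20% of it, held 8 of the 24. The other 16 spread from pooled rank 1108 to 3448. Of the 24 regions, 13 (54.2%) ranked within the first 3612 in every replicate, 8 did so in 2 replicates and 3 in a single replicate, while 62.5% of all thresholded regions did so in every replicate. By replicate, 16, 20 and 22 of the 24 were found among the highest in replicates 1, 2 and 3, which is 66.7%, 83.3% and 91.7%. The same shares over all thresholded regions were 81.3%, 83.7% and 83.4%, so replicate 1 held fewer of the member regions than of the set as a whole. Whether this reflects the library of replicate 1 was not tested. A region in each replicate list matched each of the 24 within 250 bp, and the replicate summits stood a median of 14 bp from the thresholded summit, against 16 bp over the whole set.

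By the closest annotated own start, the summits near starts all stood on the upstream side. Within 500 bp, all 17 lay upstream of the closest annotated own start, at 86 to 384 bp with a median of 137 bp. Over all 1725 genes with such a summit, 89% had it upstream and the median offset was -158 bp. With a divergent neighbour these values were 90.2% and -144 bp, so the side and the median of the members were close to those of other genes. For mRpL23 the closest start is an internal one, and the summit lay 117 bp downstream of the 5′-most start. In replicates 2 and 3 the mRpL23 summit lay 88 and 72 bp downstream of the own start closest to it. Of the 17 member summits, 8 (47.1%) lay 117 to 137 bp upstream, against 8.41% over the 1725 genes, not split by divergent neighbour. This window was chosen after the positions were seen, so the choice alone raises the members' share and the contrast is a description only. The 8 were mRpS10, mRpL41, mRpL24, mRpS6, mRpL37, mRpS7, mRpL4 and mRpL27, and for 5 of them the own start was the nearest. Cytoplasmic ribosomal protein genes, which encode the other ribosome of the cell, had their summits closer in. Of their 57 genes with a summit within 500 bp, 46 had it upstream, the median offset was -36 bp, and 1 (1.75%) lay in the same window. Between 100 and 200 bp upstream lay 9 of the 17 members (52.9%) and 5.26% of the cytoplasmic ribosomal protein genes. Of all genes with a summit 35.1% had it there, and 40.1% of those with a divergent neighbour.

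**Figure D4:**
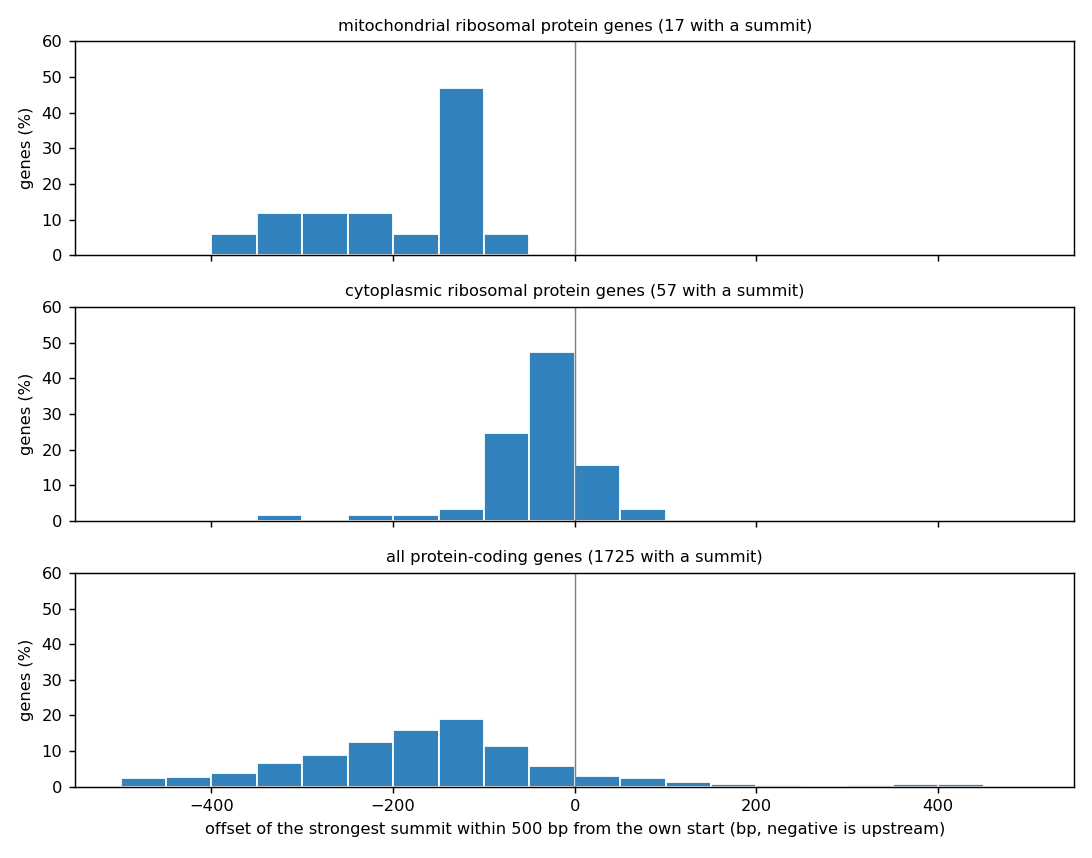
Offset in bp of the strongest thresholded summit within 500 bp from the own start (negative is upstream), as the percentage of genes with such a summit in 50 bp bins, for 17 members, 57 cytoplasmic ribosomal protein genes and 1725 protein-coding genes. The members' tallest bar lies 100 to 150 bp upstream, while most cytoplasmic ribosomal protein genes have the summit within 100 bp of the start.

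Other genes of mitochondrial gene expression are set beside the members here, by lists fixed by name or symbol. Of 8 translation factor genes, among them mEFTu1 and mIF2, 0 held a thresholded summit in the territory. Of 15 mitochondrial aminoacyl-tRNA synthetase genes, which load transfer RNAs with amino acids, LeuRS-m alone held a summit in its territory, and none within 500 bp of a start. Likewise tko and bonsai, mitochondrial ribosomal protein genes without an mRp symbol, held none. Of 14 genes for mitochondrial DNA maintenance and transcription, 3 held a summit within 500 bp, namely Lon, mTerf5 and mtSSB. Genes of the respiratory chain and ATP synthase held one in 10 of 92 cases (10.9%), near the background of 12.4%. Cytoplasmic ribosomal protein genes held one in 57 of 92 cases (62.0%). With so few genes in the shorter lists, counts of 0 allow shares of up to 32.4% for the translation factors and 20.4% for the synthetases.

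A sequence feature that the choice by symbol did not use was more frequent at the members' promoters than over all genes. CAGCTG, an E-box, was centred within 50 bp of the 5′-most start in 35 of 73 members (47.9%), against 9.62% of all protein-coding genes and 13.3% of those with a divergent neighbour. This window was chosen after the matches were seen. It was present in 23 of 47 large subunit genes and in 12 of 26 small subunit genes. It stood in 8 of 17 members with a summit within 500 bp (47.1%) and in 27 of 56 members without (48.2%), so members with and without a summit had nearly the same share. It was also present at 4 of 8 translation factor genes, 7 of 15 synthetase genes and 5 of 14 genes of mitochondrial DNA maintenance and transcription, and the first of these lists held no thresholded summit. At cytoplasmic ribosomal protein genes, with summits at most of their starts, it stood in 7 of 92 (7.61%), and at respiratory chain and ATP synthase genes in 17 of 92 (18.5%).

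Of the E-box forms, only CAGCTG is followed here, so sites of other forms nearer the summits are not described. The CAGCTG matches at the start lay at different places from the summit. These matches stood 6 bp upstream of the start of mRpL41, 8 bp upstream in mRpS2, 20 bp upstream in mRpL21 and 25 bp upstream in mRpL23. They stood 17 and 33 bp downstream of the start of mRpS6, 23 bp downstream in mRpL24 and mRpS24, and 16 bp downstream in mRpL17. In all of these except mRpL23 the summit lay 120 bp or more upstream of the start. Further matches lay upstream, at 242 bp in mRpS2, 234 bp in mRpL24, 262 bp in mRpL23 and 322 bp in mRpL34. All motif counts around summits needed the whole match inside the window. CAGCTG occurred within 100 bp of a summit at 2 of the 24 member regions (8.33%), mRpS2 and mRpL34, against 7.86% of all thresholded regions. Within 50 bp it occurred at 0 of 24, against 3.21%, and within 200 bp at 9 of 24 (37.5%), against 18.4%. The wider window takes in several of the matches at the starts. In the stretches printed above, mRpS2 and mRpL21 have the summit in capitals near the neighbour's end and CAGCTG near the member's end. The second CAGCTG of mRpS2 lies 83 bp from its summit, beyond the printed stretch.

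**Figure D5:**
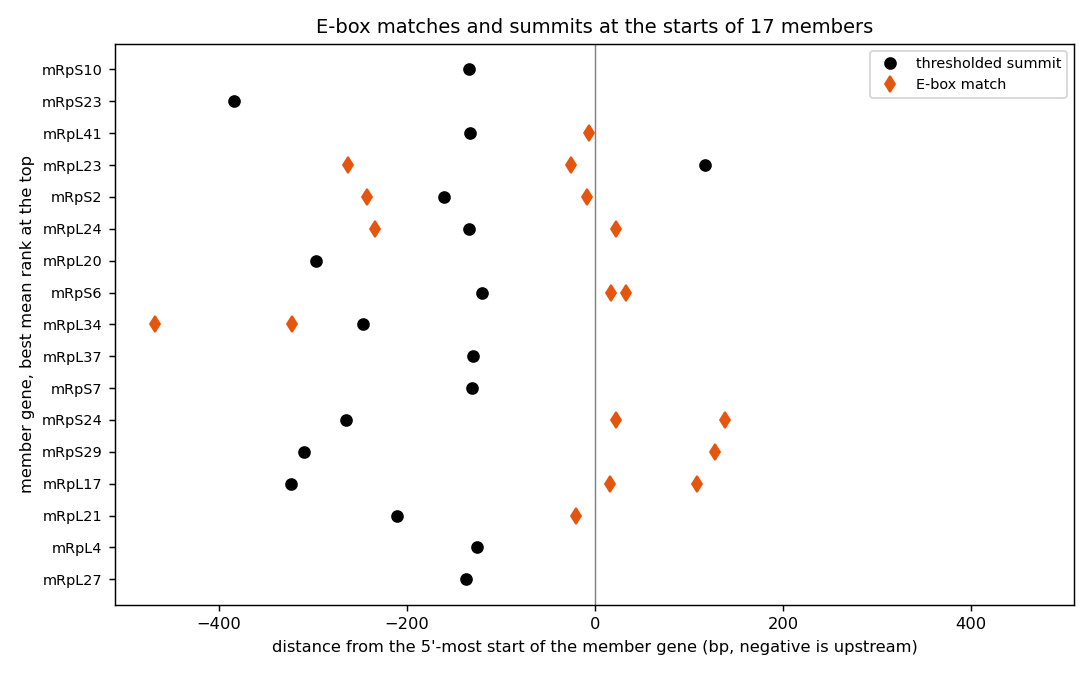
Thresholded summits (dots) and matches to CAGCTG (diamonds) in bp from the 5′-most start of the 17 members with a summit within 500 bp. Other E-box forms are not plotted. Diamonds gather within 50 bp of the start in 8 members, while the dots lie 120 to 384 bp upstream in all but mRpL23, whose dot is 117 bp downstream.

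The longer sites preferred by achaete-scute proteins with Daughterless were rare at member summits. GCAGCTG lay wholly within 100 bp of a summit at mRpL34 only (4.17%, against 3.52% of all thresholded regions), while matches at mRpL24 and mRpL22 lay at or just past its edge. Within 200 bp the count was 3 (12.5%, against 8.5%). Within 100 bp, GCAGGTG lay at mRpL2 only (4.17%, against 1.19%), 18 bp from the summit in the FoxK intron. CATATG was found at 1 region (4.17%, against 8.44%), and TATAAA at 9 (37.5%, against 38.7%). TATCGATA (the DRE of housekeeping promoters), GGTCACACT (core promoter motif 1), GCGCATGCG, GAGAGAG and AGATAAG were found at 0 of the 24. In the whole set these motifs occurred at 0.138% to 3.57% of regions, so a count of 0 in 24 windows says little. In the window from 250 bp before to 50 bp after the 5′-most start, the DRE occurred in 15 of 73 members (20.5%), against 9.36% of all genes, and CAGCTG in 40 (54.8%), against 17.7%. Member summit windows averaged 31.8% GC ± 4.76 (SD over 24 windows), against 34.7% ± 6.9 over 3612 windows.

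Below the authors' threshold more members came into view. With every pooled region at a q-value under 5%, 34 of the 73 members (46.6%) held one in the territory, against 29.6% of all genes. A region at a q-value under 5% in each of the 3 replicates was found for 18 (24.7%), against 20.6% of all genes. Of the 51 members without a thresholded summit, 12 had such a pooled region, 9 of them within 500 bp of a start, and 23 had no pooled region at all. The same counts are not given for other genes without a thresholded summit. Over all 73 members, 26 (35.6%) held a pooled region at a q-value under 5% within 500 bp of a start, against 19% of all genes. A pooled region of any q-value lay there for 43 members (58.9%), against 39.8% of all genes. Of the 51, the nearest to the threshold was mRpL44, with pooled rank 3745 and a summit 43 bp from Snr1, a gene of the Brahma chromatin remodelling complex. Its best ranks were 3057, 8027 and 3013 in the replicates. mRpS21 followed at 3833, next to Droj2, then mRpL54 at 3969, mRpS18B at 4104, mRpS31 at 4330 and mRpL11 at 4758, the last with HtrA2 as its nearest start. Of these, mRpS21 and mRpS31 reached a q-value under 5% in all 3 replicates, and mRpL54 had a replicate rank as low as 19169. The last regions inside the threshold, at mRpL21 and mRpL27, had pooled ranks 3448 and 3390, so members on both sides of the threshold had similar pooled signals.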

How the data were processed

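Scute-GFP ChIP-seq was measured in 3 biological replicates of whole embryos. According to notes deposited beside the files, the authors made a region list per replicate, a pooled list that also used a control alignment, and a thresholded list from these. The lists used are in dm6. The values are, per the file format, a region's signal, on the scale of its own list as deposited, the −log10 of its q-value, and the offset of its summit (an other kind of value, in bp), all by the authors. The sources used here name neither peak caller nor aligner, and read depth is unknown, so precision rests on the 3 replicates and on counting intervals. The pooled list held 30000 regions, of which the 3612 highest are the thresholded set.

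Gene models were Ensembl release 115, on the same build as the Release 6 genome sequence, and positions are 1-based. A replicate region was matched to the thresholded summit nearest to it, if no more than 250 bp away, keeping the strongest. Intervals are 95% Wilson intervals. No test was made, since there is 1 group. Members, lists and motifs were chosen with earlier results of these data known. All members with a thresholded summit are named, with full values for the 12 of best mean rank, as are the 6 best of the others. Of the genes listed for comparison, mEFG2 and Gtpbp5 were not found by symbol or synonym, and DAP3 was left out because it is mRpS29. Readers were tested on planted positions. Python 3.11.15, numpy 2.4.6, scipy 1.17.1 and matplotlib 3.10.9 were used. Alternatives varied windows, thresholds, matching, starts and replicates. The divergent neighbour of mRpL37 is not reported here.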

Additional observations from a re-analysis of the deposited data

How the results depend on the processing

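The territory count of 22 members kept within 1.5 times with 1 kb or 5 kb upstream or with any overlap of region and territory. It became 1 with the gene body alone, 10 with the highest-signal 1806 regions of the thresholded set (13.7%, against 12.8% of all genes), 34 with pooled regions at a q-value under 5% (46.6%, against 29.6%) and 9 when each summit counted only for its nearest start (12.3%, against 16.8%). Under this last rule the members' share was below that of all genes. The last count adds mRpL40, whose summit lies outside its territory, and a further summit of mRpL21. Keeping only thresholded regions found among the highest of both other replicates, with each replicate set aside in turn, gave 13 to 16. This filter can only lower the count, and the thresholded set itself still came from all 3 replicates. The count of 17 at the starts became 9 with the highest-signal 1806 regions (12.3%, against 7.49%) and 26 at a q-value under 5% (35.6%, against 19%). With the same filter on the other replicates it was 10 to 13. It kept within 1.5 times for windows of 250 or 1000 bp and for the 5′-most start alone. Member windows with any of the 10 motifs numbered 11 of 24 at 100 bp, 7 at 50 bp and 23 at 200 bp, against 54.8%, 34.6% and 77.5% of all windows. The counts of own-nearest summits, divergent neighbours, regions found in all 3 replicates and members with q under 5% in all 3 kept within 1.5 times under each alternative listed for them. No paired analysis was possible because there is 1 group. Depth is unknown, so the weak regions near the threshold cannot be weighed by reads.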
